A study of Homo sapiens with 6 samples.

Results

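The 10 genes described here encode the Rel-family subunits of the transcription factor NF-kB (NFKB1, NFKB2, REL, RELA and RELB), the IkB inhibitors that bind them (NFKBIA, NFKBIB and NFKBIE) and a pair of feedback genes (TNFAIP3 and BIRC3). They were picked by name from the gene count table, where each has 1 row, and make up 10 of its 36601 rows and 10 of the 17839 genes with enough counts to test. The samples are U2OS cells, a human osteosarcoma line, in which doxycycline had switched on a Clover-tagged TDP-43 construct labelled mNLS. Both groups carry this construct and doxycycline. In the group called aggregates here, cells received 50 nM fibril seeds made of recombinant TDP-43 LCD with a lipid transfection reagent, and an image-based sorter collected the cells with Clover aggregates at 48 h. In the group called diffuse, cells were transfected with protein storage buffer alone, and the sorter collected the cells with diffuse Clover at 48 h. There are 3 libraries of polyA RNA in each group, from separate transfections. Fibrils and sort gate differ together between the groups, so their parts in a difference cannot be told apart. The labels do not say whether the line is a single clone.

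NF-kB is a family of dimers built from Rel proteins, which share the domain that binds DNA. In resting cells IkB proteins hold the dimers in the cytoplasm. In the canonical pathway the IkB kinase complex marks IkB for degradation, whereas in the non-canonical pathway the kinase encoded by MAP3K14 drives processing of the NFKB2 precursor, which pairs with RELB. Several of the 10 genes are themselves transcribed in response to NF-kB, among them NFKBIA, NFKB2, RELB, TNFAIP3 and BIRC3. Most of this control acts on proteins, which were not measured here.

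All 5 Rel subunit genes were higher in aggregates than in diffuse cells and all 3 IkB inhibitor genes were lower. Of these, RELA, NFKBIA and NFKBIE differed little, at 1.08-fold, 0.93-fold and 0.91-fold, and their calls did not hold under every setting run. RELB and NFKB1 moved most among the subunits, to 1.80-fold and 1.62-fold of the diffuse level, and NFKBIB most among the inhibitors, to 0.60-fold. The feedback genes parted, with BIRC3 at 1.78-fold and TNFAIP3 at 0.66-fold. All 10 genes passed the threshold of 0.05 on the adjusted p of the edgeR quasi-likelihood test, 6 upward and 4 downward, but so did 75.4% of the genes tested, 37.8% upward and 37.6% downward. None of the 10 differed by over 2-fold. Of the tested genes, 6.68% passed and were over 2-fold upward, and 8.11% passed and were over 2-fold downward. The groups did not overlap in any of the 10 genes, and they did not overlap in 76.2% of all tested genes. The median log2 fold change, aggregates over diffuse, was 0.25 over the 10 genes and 0.01 over all tested genes. In these bulk libraries, fewer cells with a transcript and less of it per cell cannot be told apart.

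The regions just upstream of the transcription starts are shown because several of these genes are known to be bound by NF-kB. RefSeq promoters (build GRCh38.p14, the 250 bases before each start) were found for 8 of the 10 genes, and the RELB and NFKBIE genes had no entry. The kappaB consensus motif was searched on both strands, with overlapping matches joined into 1 site. It was present upstream of at least 1 start in 7 of the 8 genes (87.5%), against 15.6% of the 12265 tested genes with a RefSeq promoter. Of the tested NF-kB target genes outside the members, 22 had a RefSeq promoter, and 11 of these 22 held the motif. Counted by start, 8 of 13 member promoters held it (61.5%), against 12% of the promoters of tested genes. The 22 target genes have 35 promoters, of which 11 held it (31.4%). RELA was the gene with no match. The site nearest to a start in each gene is given with 30 bases on the gene's own strand, the motif in capitals.
NFKB1 (chr4:102501300-102501329, plus strand): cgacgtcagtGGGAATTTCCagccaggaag
NFKB2 (chr10:102395674-102395703, plus strand): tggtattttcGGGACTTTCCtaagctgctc
REL (chr2:60881517-60881546, plus strand): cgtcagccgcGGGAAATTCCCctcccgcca
NFKBIA (chr14:35404811-35404840, minus strand): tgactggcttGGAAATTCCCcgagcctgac
NFKBIB (chr19:38899931-38899960, plus strand): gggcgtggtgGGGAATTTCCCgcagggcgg
TNFAIP3 (chr6:137867194-137867223, plus strand): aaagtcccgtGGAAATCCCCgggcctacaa
BIRC3 (chr11:102317339-102317368, plus strand): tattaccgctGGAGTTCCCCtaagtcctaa
The motif lies 21 to 135 bases before a RefSeq start in these 7 windows. In GENCODE 29 the sites of NFKB1, NFKBIA and BIRC3 lie outside the gene, that of NFKBIB in an intron, and those of NFKB2, REL and TNFAIP3 in a GENCODE exon. The motif is upstream both of genes that rose (NFKB1, NFKB2, REL, BIRC3) and of genes that fell (NFKBIA, NFKBIB, TNFAIP3). A match describes the letters and is not a measured binding site.

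Gene positions are those of GENCODE 29 on hg38. RELB (ENSG00000104856, chromosome 19, 45001430 to 45038198, plus strand), the subunit that partners the processed NFKB2 product in the non-canonical pathway, had 70.4, 69.1 and 69.7 TMM-scaled CPM (counts scaled to a common library total) in aggregates, against 39.8, 36.6 and 39.9 CPM in diffuse cells. Its means were 69.7 ± 0.669 and 38.8 ± 1.87 CPM (SD, n = 3 libraries each), a log2 fold change of 0.85 (SE 0.04, edgeR adjusted p = 2.6e-34). Every aggregate library was far above every diffuse library. NFKB1 (ENSG00000109320, chromosome 4, 102501329 to 102617302, plus strand) encodes a precursor processed to a DNA-binding subunit of the most common NF-kB dimer. It had 84.8, 79.6 and 85.4 CPM in aggregates and 49.6, 50.2 and 54.6 CPM in diffuse cells, with a log2 fold change of 0.69 (SE 0.04, edgeR adjusted p = 1.05e-28). The gap between the groups was larger than the range within either of them.

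NFKB2 (ENSG00000077150, chromosome 10, 102394110 to 102402529, plus strand), whose product is processed in the non-canonical pathway, had 99.2, 100.03 and 97.1 CPM in aggregates and 79.5, 73.4 and 73.9 CPM in diffuse cells. This gave a log2 fold change of 0.39 (SE 0.04, edgeR adjusted p = 3.88e-16), with diffuse library 1 nearest to the aggregates. REL (ENSG00000162924, chromosome 2, 60881521 to 60931610, plus strand), the subunit best known from lymphocytes, had 30.9, 32.03 and 32.9 CPM in aggregates and 24.1, 24.1 and 24.6 CPM in diffuse cells. Its log2 fold change was 0.40 (SE 0.05, edgeR adjusted p = 4.08e-12), of the same size as that of NFKB2. RELA (ENSG00000173039, chromosome 11, 65653596 to 65663094, minus strand), the main transactivating subunit of the canonical pathway, differed least. It had 132, 138 and 132 CPM in aggregates and 128, 122 and 123 CPM in diffuse cells, a log2 fold change of 0.11 (SE 0.04, edgeR adjusted p = 0.00492). Its call was lost when the difference was tested against a fold of 1.2 (edgeR glmTreat adjusted p = 1). Added over the 5 subunit genes, the level was 417 to 418 CPM in the aggregate libraries and 307 to 320 CPM in the diffuse libraries.

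**Figure D1:**
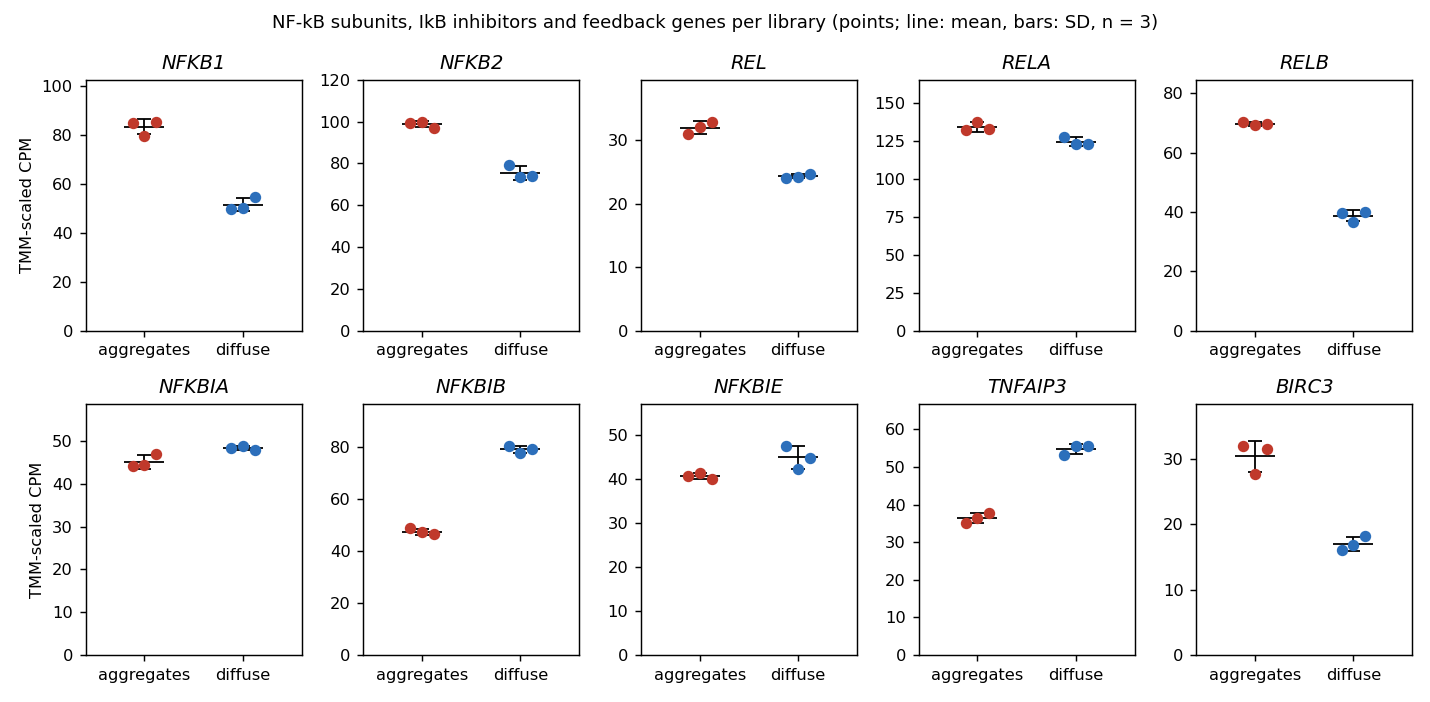
TMM-scaled CPM of the 10 genes in each library (points), with the mean (line) and SD (bars) of 3 aggregate libraries on the left and 3 diffuse libraries on the right of each panel; each vertical axis starts at 0 and has its own range. The subunits RELB and NFKB1 and the feedback gene BIRC3 are clearly higher in aggregates, NFKBIB and TNFAIP3 clearly lower, and RELA, NFKBIA and NFKBIE differ by little more than the spread within a group.

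NFKBIB (ENSG00000104825, chromosome 19, 38899700 to 38908893, plus strand), which encodes IkB-beta, stood out among the inhibitors. It had 48.7, 47.2 and 46.4 CPM in aggregates, against 80.4, 77.6 and 79.3 CPM in diffuse cells. The means were 47.4 ± 1.14 and 79.1 ± 1.44 CPM (SD, n = 3 each), with a log2 fold change of -0.74 (SE 0.04, edgeR adjusted p = 1.62e-31). NFKBIB shares 40 exon bases with SIRT2 on the opposite strand, and whether the counting used strand is not given in the sources used here, although the library kit was stranded. SIRT2 averaged 1738 counts in aggregates and 1139 counts in diffuse libraries, the reverse of the direction of NFKBIB.

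NFKBIA (ENSG00000100906, chromosome 14, 35401511 to 35404749, minus strand), which encodes IkB-alpha, the inhibitor known for its rapid resynthesis after NF-kB activation, had 44.05, 44.4 and 47.02 CPM in aggregates and 48.4, 48.9 and 47.9 CPM in diffuse cells. This is a log2 fold change of -0.10 (SE 0.04, edgeR adjusted p = 0.026), and aggregate library 3 came close to the lowest diffuse library. The call did not hold without aggregate library 1 (adjusted p = 0.134) or 2 (0.0889), with upper-quartile scaling (0.217), with DESeq2 (0.0706), with only genes averaging at least 5 CPM (0.05, not under the threshold) or against a fold of 1.2 (adjusted p = 1). NFKBIE (ENSG00000146232, chromosome 6, 44258166 to 44265788, minus strand), which encodes IkB-epsilon, had 40.7, 41.5 and 40.02 CPM in aggregates and 47.6, 42.4 and 44.8 CPM in diffuse cells, with a log2 fold change of -0.14 (SE 0.04, edgeR adjusted p = 0.00291). Diffuse library 2 lay just above the aggregate libraries, and the call was lost against a fold of 1.2 (adjusted p = 1). Added over the 3 inhibitors, the level was 133 CPM in each aggregate library and 169 to 176 CPM in the diffuse libraries, and most of this gap came from NFKBIB.

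BIRC3 (ENSG00000023445, chromosome 11, 102317450 to 102339403, plus strand) encodes an inhibitor-of-apoptosis ubiquitin ligase that acts at TNF receptors and in the turnover of the kinase encoded by MAP3K14. It had 32.02, 27.7 and 31.5 CPM in aggregates, against 16.0, 16.8 and 18.2 CPM in diffuse cells. The means were 30.4 ± 2.39 and 17.02 ± 1.10 CPM (SD, n = 3 each), with a log2 fold change of 0.83 (SE 0.05, edgeR adjusted p = 4.94e-23). The lowest aggregate library, number 2, was still well above the highest diffuse library. BIRC2, its paralog with a related role, went the other way, at 81.8 ± 5.06 CPM in aggregates and 142 ± 4.52 CPM in diffuse cells (log2 fold change -0.80, edgeR adjusted p = 9.9e-33).

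TNFAIP3 (ENSG00000118503, chromosome 6, 137867188 to 137883312, plus strand) encodes a ubiquitin-editing enzyme that shuts off signalling to NF-kB. It had 35.2, 36.4 and 37.7 CPM in aggregates and 53.2, 55.5 and 55.6 CPM in diffuse cells. Its log2 fold change was -0.59 (SE 0.04, edgeR adjusted p = 3.53e-23), and the groups were separated by more than their own ranges. TNFAIP3 also has 95 exon bases in common with an antisense gene, AL357060.1, which is not a row of the count table.

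To compare the 10 genes with each other, CPM were divided by the length of their merged GENCODE exons. Merged exons take in every annotated transcript, including retained-intron transcripts of genes such as RELA. The order of all 10 genes therefore depends on this length, and the lengths of the transcripts in use were not tried. In aggregates RELA stood first, at 24.5 ± 0.564 CPM per kb, followed by RELB at 23.0 ± 0.22 and NFKB2 at 22.03 ± 0.343 CPM per kb, so that the 3 highest were all subunits. In diffuse cells NFKBIB stood first, at 34.0 ± 0.618 CPM per kb, then RELA at 22.8 ± 0.504 and NFKBIA at 20.4 ± 0.197 CPM per kb. NFKBIB came below these subunits in aggregates, at 20.4 ± 0.493 CPM per kb, and RELB came below all 3 inhibitors in diffuse cells, at 12.8 ± 0.617 CPM per kb. BIRC3, at 4.04 ± 0.318 and 2.26 ± 0.147 CPM per kb, and REL, at 2.43 ± 0.0752 and 1.84 ± 0.0233 CPM per kb, were lowest in aggregates and in diffuse cells alike. The place of REL changed when another length was used. Its exons, merged over all its GENCODE transcripts, add up to 13.2 kb, of which 5702 bases are also exon of AC010733.2, a gene on the same strand with 0 counts in every library. Without those bases, an alternative chosen after the data were seen, REL had 4.28 ± 0.133 CPM per kb in aggregates and 3.25 ± 0.0411 CPM per kb in diffuse cells. REL then stood above BIRC3 in both groups, and the library ranges of REL and BIRC3 overlapped in aggregates. With the full exon lengths, neighbours in the order did not overlap in their library ranges, except NFKBIE and NFKB2 in diffuse cells. These had 17.4 ± 0.998 and 16.9 ± 0.751 CPM per kb. The ranges show spread between libraries only, not the uncertainty in length.

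**Figure D2:**
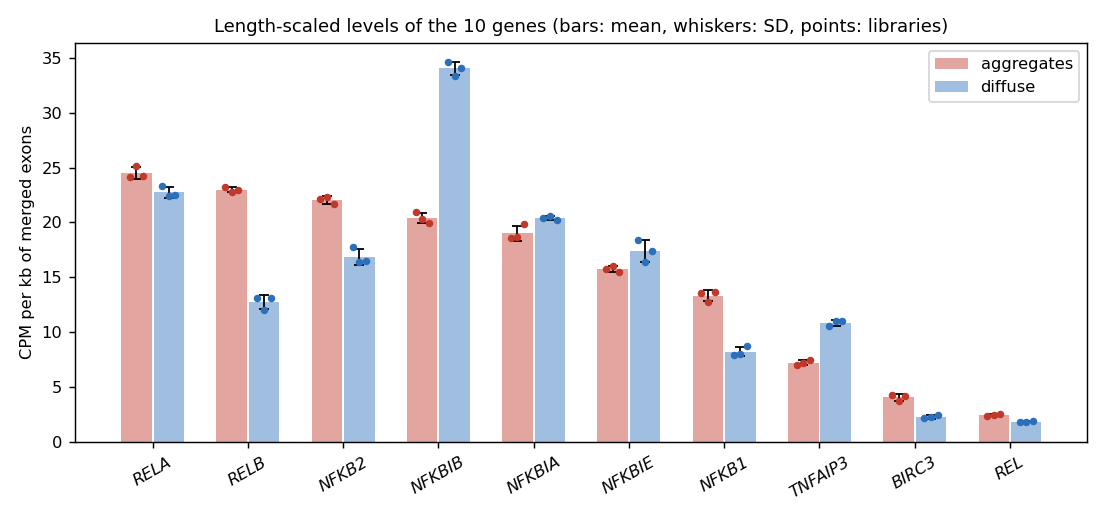
CPM per kb of merged exons for the 10 genes, ordered by their level in aggregates; bars are means and whiskers SDs of 3 libraries, aggregates left of diffuse, and points are libraries. NFKBIB is the highest of the diffuse bars at 34.0 and lies among the subunits and other inhibitors in aggregates at 20.4.

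Splicing of the 10 genes was read from a separate table of spliced-read counts per intron, in which LeafCutter had grouped introns that share a splice site into clusters. All 26 clusters of the 10 genes, with 94 introns, could be tested. Of these 26, 0 changed by edgeR diffSpliceDGE with Simes combination, against 5.02% of 35898 clusters in all. At an unadjusted p under 0.05 there were 2, and a cluster F test called 0 of the 26. The lowest adjusted p was 0.154, in NFKB1. Its cluster holds an unannotated intron on chromosome 4, 102582635 to 102582865 (hg38), with 2 counts over the aggregate libraries and 15 over the diffuse libraries, of which diffuse library 1 had 0. The annotated intron that ends at the same site, from 102580640, took 99.3 ± 1.27% of the cluster's counts in aggregates and 95.2 ± 5.02% in diffuse cells. In RELA the cluster with adjusted p = 0.194 holds an intron (chromosome 11, 65659798 to 65661686) that GENCODE gives only in a transcript marked for nonsense-mediated decay. It was used at 0.259 ± 0.0286% in aggregates and 0.873 ± 0.576% in diffuse cells, on 15 and 45 counts. Diffuse library 3 held 27 of the 45, and without it the diffuse mean was 0.543%. The largest shift in mean use was 13.9 points in BIRC3, where the intron from 102317572 to 102321836 on chromosome 11 took 79.0 ± 11.04% in aggregates and 65.0 ± 12.6% in diffuse cells. It rests on 139 and 76 counts over the 3 libraries of each group, and the SDs of the groups overlap. The median shift over the 94 introns was 0.955 points. A change in introns with this few counts may not be detectable at this depth.

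**Figure D3:**
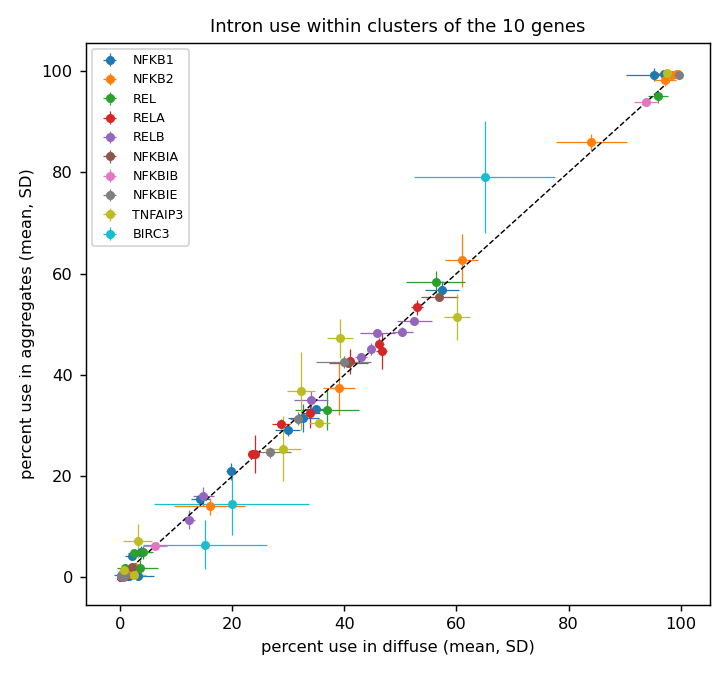
Mean percent use of each tested intron within its cluster in aggregates (vertical) against diffuse cells (horizontal), with SD over 3 libraries each, coloured by gene; the dashed line marks equal use. The points follow the line, and a BIRC3 intron at 79.0% in aggregates and 65.0% in diffuse cells lies farthest from it.

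Around these 10 genes, 132 other genes of the pathway were listed by role, of which 112 could be tested. Of these, 44 rose and 47 fell in aggregates (81.2% called, against 75.4% of all tested genes), with a median log2 fold change of -0.00. Among 10 atypical IkB proteins, regulators and cofactors, 6 rose and 2 fell, with a median of 0.35. IKBKG, the regulatory subunit of the IkB kinase complex, rose by 0.70 (26.8 ± 1.34 CPM in aggregates, 16.6 ± 1.36 CPM in diffuse cells). Its value is uncertain, because a near-identical pseudogene exists and no source tells how reads matching both were assigned. NFKBID, a nuclear IkB protein, rose to 8.36 ± 0.639 CPM, against 5.07 ± 0.51 CPM in diffuse cells, and NKAP to 14.1 ± 0.246 CPM, against 7.35 ± 0.153 CPM. NKIRAS1, a small GTPase-like protein that binds IkB, fell to 10.8 ± 1.08 CPM, against 19.3 ± 1.43 CPM, and PPP1R13L, which binds RELA, to 73.3 ± 2.75 CPM, against 90.8 ± 2.97 CPM.

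Kinases of the pathway were split, with 6 of 16 rising and 8 falling (median -0.05). IRAK1, a kinase downstream of interleukin and Toll-like receptors, rose to 648 ± 10.1 CPM in aggregates, against 425 ± 13.8 CPM in diffuse cells. IKBKE rose by 0.42 and TAB1 by 0.39 on the log2 scale. MAP3K3 fell to 41.1 ± 1.55 CPM, against 79.8 ± 0.736 CPM, and MAP3K8 and TAB2 fell by 0.69 and 0.63. CHUK and MAP3K14, which act in the non-canonical pathway, fell by 0.50 and 0.28. IKBKB, like CHUK a catalytic subunit of the IkB kinase complex, had 39.3 ± 1.36 CPM in aggregates and 37.2 ± 1.16 CPM in diffuse cells. It did not pass (edgeR adjusted p = 0.0922). These 3 kinases were singled out after their values were seen.

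Of 18 adaptors and ubiquitin ligases, 5 rose and 7 fell (median -0.01). RBCK1, a subunit of the linear ubiquitin ligase, rose to 84.7 ± 3.17 CPM, against 48.5 ± 1.41 CPM in diffuse cells, and TRAF1, an adaptor induced by NF-kB, to 17.2 ± 0.642 CPM, against 10.6 ± 0.932 CPM. UBE2N, a ubiquitin-conjugating enzyme of this pathway, rose by 0.18. TRAF6 and TRAF5 fell by 0.86 and 0.73, beside BIRC2. Of 16 tested negative regulators other than TNFAIP3, 5 rose and 9 fell (median -0.12). TNIP3, a partner of the TNFAIP3 protein, rose to 3.04 ± 0.222 CPM, against 0.445 ± 0.159 CPM. ZC3H12A, an RNase that degrades inflammatory mRNAs, rose to 38.1 ± 0.809 CPM, against 22.1 ± 2.39 CPM, and TNIP1 rose by 0.20. TRIB1, OTUD7B, a deubiquitinase related to TNFAIP3, and PDLIM2 fell by 0.89, 0.78 and 0.64.

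Among 18 tested receptors 6 rose and 7 fell (median -0.02). LTBR, a receptor of the non-canonical pathway, rose to 100.03 ± 4.55 CPM, against 57.8 ± 1.49 CPM in diffuse cells, IL18R1 to 4.72 ± 0.342 CPM, against 2.16 ± 0.158 CPM, and the death receptor gene FAS by 0.44. IL1RAP, the co-receptor for IL1 cytokines, fell by 0.69, and the low-level genes TNFRSF1B and NOD2 by 1.51 and 1.14. Ligands were mostly too low to test, with 5 of 14 tested, of which 2 rose and 3 fell (median -1.05). The inflammatory cytokine gene IL18 rose to 248 ± 7.23 CPM, against 187 ± 2.73 CPM, and IL1A to 5.41 ± 0.236 CPM, against 3.22 ± 0.243 CPM, whereas TNF fell to 0.924 ± 0.119 CPM, against 2.21 ± 0.247 CPM.

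Genes known as NF-kB targets outside the 10 members moved both ways, with 14 of 29 tested genes rising and 11 falling (median 0.16). The neutrophil chemokine CXCL8 rose to 80.8 ± 6.79 CPM in aggregates, against 7.22 ± 1.75 CPM in diffuse cells (log2 fold change 3.48, SE 0.17, edgeR adjusted p = 2.07e-05). SOD2, the mitochondrial superoxide dismutase, rose to 417 ± 24.9 CPM, against 145 ± 2.29 CPM, and CXCL3 to 3.4 ± 0.187 CPM, against 1.15 ± 0.159 CPM. GADD45B, a stress response gene, fell to 11.8 ± 0.436 CPM, against 44.8 ± 0.572 CPM, IER3 to 51.0 ± 1.61 CPM, against 130.5 ± 6.77 CPM, and the complement gene C3 to 3.91 ± 0.0655 CPM, against 8.72 ± 0.293 CPM. The 6 genes named here had edgeR adjusted p values no larger than that of CXCL8.

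**Figure D4:**
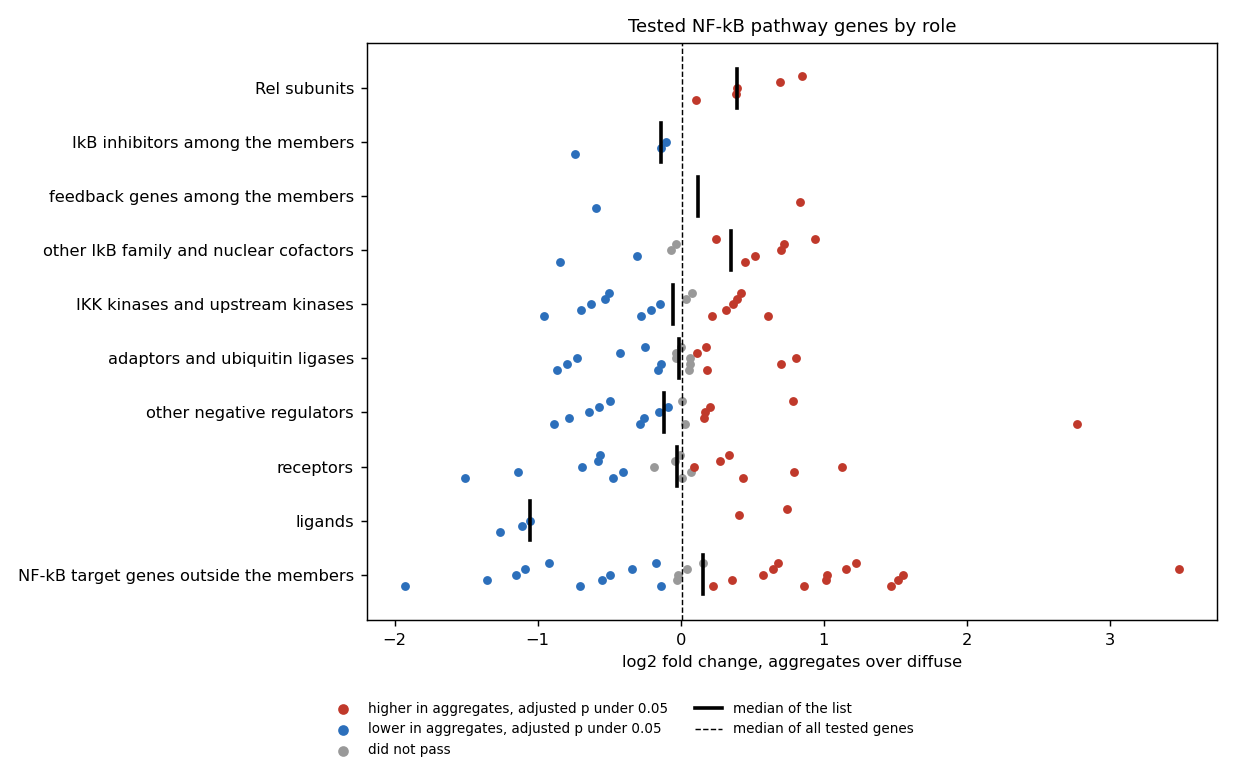
Log2 fold change (aggregates over diffuse) of each tested gene by role, coloured by the call of the edgeR test; thick lines are list medians and the dashed line is the median of all tested genes. The 5 subunits lie right of the dashed line and the 3 inhibitors left of it, with RELA, NFKBIA and NFKBIE close to it. Kinases, adaptors, receptors and targets spread to both sides.

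Library totals were 40279084 to 46863013 gene counts, and each of the 10 genes had at least 640 counts in every library. TARDBP, the gene of TDP-43, had 2581 ± 42.5 CPM in aggregates and 7440 ± 218 CPM in diffuse cells, endogenous and induced copies together. Of 10 blood cell markers 8 had under 10 counts in every library and 1, CSF1R, could be tested, at 0.796 to 1.16 CPM in aggregates and 0.937 to 1.21 CPM in diffuse cells. Tested epithelial markers added up to 325 to 329 CPM in aggregates and 686 to 750 CPM in diffuse cells, chiefly KRT8 and KRT18 (1 of 6 rose, 3 fell), while the epithelial markers EPCAM and CDH1 were near 4 CPM and did not pass. No listed marker of any cell type was at 0 in all libraries. Endothelial markers added up to 2.87 to 4.15 and 6.57 to 7.37 CPM (0 of 4 rose, 2 fell), and neuronal markers to 102 to 104 and 73.2 to 76.9 CPM (5 of 7 rose, 2 fell), in aggregates and diffuse cells in that order. Mesenchymal and osteosarcoma markers, all 10 of them detected, added up to 5954 to 6424 CPM in aggregates and 8757 to 9156 CPM in diffuse cells (4 rose, 5 fell). The part of these shifts in the values above was not tested.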

How the data were processed

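The deposited values are whole-number counts, not normalized, in a table of counts per gene and a table of LeafCutter counts of spliced reads per intron. The submitters' processing notes name hg38, STAR 2.7.11a and fastp 0.23.2. The sources used here do not give the gene counter, its strand setting or a version of LeafCutter. Genes were tested with edgeR 4.0.16 (R 4.3.3): low genes were removed with filterByExpr, libraries were scaled by TMM, and a robust quasi-likelihood F test ran over 17839 genes, with Benjamini-Hochberg adjustment. SE is the log2 fold change over the root of F. Introns with at least 10 counts, in clusters with at least 10 counts per library, were tested with diffSpliceDGE and placed with GENCODE 29. Both tests were checked on simulated data, with recovery judged only above a minimum level. The introns of NFKB1, REL, TNFAIP3 and BIRC3 lie below the level used for introns, as do the rarely used introns of the other members. The check does not cover them. DESeq2 1.42.0 was an alternative. Replicate libraries differed by more than sampling noise (chi-square per degree of freedom 2.44 to 5.84). The labels give all libraries 1 batch.

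The members and lists were chosen with earlier results of these data known. From each list, up to 3 genes that rose and 3 that fell most are named, with a mean of at least 1 CPM.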

Additional observations from a re-analysis of the deposited data

How the results depend on the processing

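Of 130 log2 fold changes of the 10 members under other settings, 122 kept direction and call, 8 kept direction without passing and 0 reversed. The exceptions concern NFKBIA, RELA and NFKBIE, given above. Among the genes named by rule from the pathway lists, PPP1R13L, UBE2N and TNIP1 did not pass against a fold of 1.2 (edgeR adjusted p 0.0759, 1 and 1). CHUK, MAP3K14 and IKBKB were not run under other settings. The other 7 members passed under every setting run: other scalings, DESeq2, other filters, a fold of 1.2, a replicate block and each library left out. The number of changed clusters over all genes was 1802, 2721 with a cluster F test, and 1171 to 1318 when 1 library was left out, lowest without diffuse replicate 3. The 26 member clusters gave 0 calls in each of these, though 23 to 26 were testable.

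Same-numbered libraries of the 2 groups had residual correlations of 0.0362 to 0.0831, under 0.1, so the numbers were not taken to pair them, although each library correlated best with its own number. With the replicate block 10 members, 13530 genes and 1494 clusters changed, against 10, 13455 and 1802 without it.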

Other observations

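Over the whole table, 1908 tested genes outside the members had the kappaB consensus motif within 250 bases upstream of a RefSeq start. Of these, 36.2% rose and 44.8% fell in aggregates, with a median log2 fold change of -0.06. Of 10349 tested genes without the motif there, 39.8% rose and 39.1% fell, with a median of 0.01. The difference between the sets was not tested.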
